A study of Mus musculus with 16 samples.

Results

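The inward rectifier potassium channels are encoded by the Kcnj genes. Of this family Kcnj2, Kcnj3, Kcnj4, Kcnj5, Kcnj6, Kcnj8, Kcnj9, Kcnj10, Kcnj11 and Kcnj12 were chosen by gene symbol, 10 genes of the 51912 in the deposited count table. The data are RNA sequencing of nuclei from the colon of C57BL/6 mice, in 4 groups of 4 libraries. The groups were neuronal nuclei after 3-methylcholanthrene, an agonist of the aryl hydrocarbon receptor (AhR), neuronal nuclei after corn oil, and non-neuronal nuclei after each of these. All mice were housed specific pathogen-free and carried the virus AAV9-CaMKII-EGFP-KASH, given intravenously 5 weeks earlier, and all received an intraperitoneal injection 14 hours before the nuclei were isolated. No source used here gives the agonist's dose or the age and sex of the mice. Neuronal nuclei are those sorted as positive for EGFP, a fluorescent protein that the KASH tag holds at the nuclear envelope and that the CaMKII promoter drives. Non-neuronal nuclei are all others of the peeled longitudinal muscle and myenteric plexus, so a neuron without enough EGFP would be sorted among them.

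An inward rectifier passes potassium into the cell more easily than out of it, and the small outward current near rest holds the membrane potential down. Kir2 channels (Kcnj2, Kcnj4, Kcnj12) are open at rest and rectify strongly. Kir3 or GIRK channels (Kcnj3, Kcnj5, Kcnj6, Kcnj9) are opened by the beta-gamma subunits that Gi/o-coupled receptors release, a route by which opioids and other inhibitory transmitters hyperpolarize enteric neurons. Kir6 subunits (Kcnj8, Kcnj11) form the ATP-sensitive channel together with a sulfonylurea receptor (Abcc8, Abcc9), and Kir4.1 (Kcnj10) is the potassium-clearing channel of glia. AhR is a transcription factor that binds DNA with the core letters GCGTG once an agonist such as 3-methylcholanthrene is bound. The question behind the series, as far as known, is how AhR bears on the excitability of enteric neurons, and this family is where the study looked for that link.

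The part of the gene that makes these channels potassium channels is short, and it is shown for 5 of the members whose level differed between the nuclear populations in at least 1 test below. Each line gives 39 bases of coding sequence read from GRCm38, 5′ to 3′ along the coding strand, and the capitals mark the 15 bases that encode the potassium signature of the pore loop.
Kcnj3: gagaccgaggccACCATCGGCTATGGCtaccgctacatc
Kcnj5: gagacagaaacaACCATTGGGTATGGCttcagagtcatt
Kcnj6: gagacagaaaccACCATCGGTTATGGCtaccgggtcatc
Kcnj11: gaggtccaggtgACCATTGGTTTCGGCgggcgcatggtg
Kcnj8: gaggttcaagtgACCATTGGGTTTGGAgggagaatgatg
The fourth codon of the signature is TAT, for tyrosine, in the Kir3 genes shown. In the Kir6 genes it is TTC in Kcnj11 and TTT in Kcnj8, for phenylalanine. Kcnj8 and Kcnj11 differ from each other at 8 of the 39 bases. The Kir3 genes Kcnj5 and Kcnj6 differ at 7, as do Kcnj3 and Kcnj6, while Kcnj3 and Kcnj5 differ at 12. The stretch lies at chr2:55437615-55437653 in Kcnj3 and at chr7:46099484-46099522 in Kcnj11, in a coding exon in each case.

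The libraries held 2663738 to 4902303 counts. Agonist libraries carried the RNA of the standard AhR target Cyp1a1, a cytochrome P450: it was at 0 in all neuronal corn oil libraries and at 2.52 to 8.05 CPM, counts scaled by library size and TMM factor, in the neuronal agonist libraries. Mitochondrial genes took 10.3% to 42.8% of the counts in non-neuronal libraries and 1.77% to 6.11% in neuronal ones, and non-neuronal agonist libraries 1 and 2 were above 30%. Neuronal agonist library 1 stood apart from the other 7 neuronal libraries: 89 of 14182 genes were at least 8-fold above the highest of the others, against 0 to 3 genes in each other library, and it had the fewest genes detected (17293). The 10 neuronal marker genes summed to 1756 to 3526 CPM in neuronal libraries and to 65.7 to 368 CPM in non-neuronal ones, so the sort separated the populations but neuronal RNA was measured on both sides. Non-neuronal libraries held much epithelial RNA in varied amounts. The 8 epithelial markers summed to 1041 to 14416 CPM there, and the 8 smooth muscle markers to 2990 to 12467 CPM. Muc2, a goblet cell gene, had a mean of 6429 CPM in non-neuronal corn oil libraries. In bulk libraries, fewer cells of a type and less RNA per cell cannot be told apart. The labels do not say whether libraries came from separate mice, and p-values measure only the spread between these samples.

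Levels below are CPM after scaling all 16 libraries together by TMM, edgeR's normalization factor, and levels of different genes are compared only per kilobase of exon. Differences were tested with edgeR's quasi-likelihood test over all genes that passed a filter on low counts. A gene is called where its p-value, adjusted by Benjamini-Hochberg over all tested genes, is under 0.05. Of the 10 members, 6 passed the filter between populations in corn oil, 7 after agonist, 7 for the agonist in neuronal nuclei and 4 for the agonist in non-neuronal nuclei. The filter admits a gene that is high in a single group, so these are not a sample of the family.

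**Figure D1:**
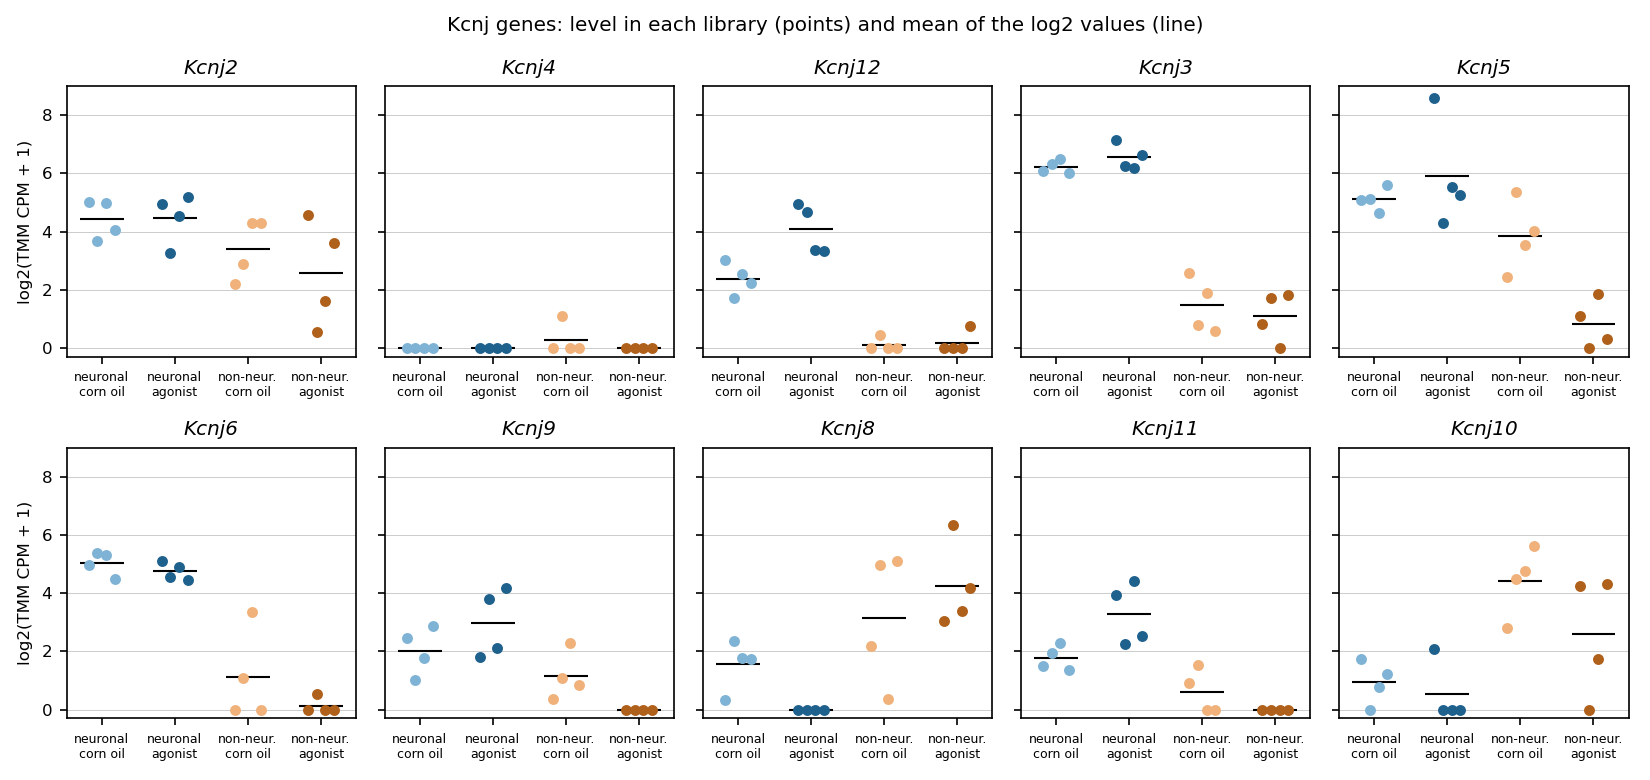
Level of each of the 10 Kcnj genes in each of the 16 libraries, as log2 of TMM-scaled CPM plus 1, by group. Points are libraries and lines are means of the 4 log2 values. Kcnj3 and Kcnj6 sit high in both neuronal groups, Kcnj8 and Kcnj10 have higher means in non-neuronal groups, Kcnj4 is at 0 in 15 libraries, and the Kcnj5 point at the top is the 379.9 CPM of neuronal agonist library 1.

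In neuronal nuclei of corn oil mice the Kir3 genes Kcnj3, Kcnj5 and Kcnj6 had the highest means among the 10 members. Per kilobase of exon, the mean level was 14.2 ± 2.18 CPM per kb (SD, n = 4) for Kcnj3, 7.36 ± 2.06 for Kcnj5, 4.29 ± 1.16 for Kcnj6 and 4.11 ± 1.88 for Kcnj2. Kcnj12 followed at 1.62 ± 0.734 CPM per kb, then Kcnj8 at 0.896 ± 0.617, Kcnj9 at 0.826 ± 0.537, Kcnj11 at 0.686 ± 0.284 and Kcnj10 at 0.203 ± 0.184. Kcnj3 was the only member whose 4 libraries all lay above those of the next in order, and every later pair of neighbours overlapped. Kcnj4, which encodes Kir2.3, had no count in any neuronal library, which allows a level up to 0.191 CPM over the corn oil group and 0.188 CPM over the agonist group. Its 3 counts in the whole series came from non-neuronal corn oil library 2.

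Kcnj3 encodes Kir3.1, the subunit that pairs with the other Kir3 proteins, and lies at chr2:55435970-55598145 on the plus strand. It was measured at 66.8, 78.2, 88.2 and 63.3 CPM in the neuronal corn oil libraries 1 to 4, and at 5.03, 0.751, 2.69 and 0.518 CPM in the non-neuronal ones. The groups lay far apart, and the log2 difference was 5.11 (SE 0.62, edgeR adjusted p 7.7e-05). After agonist the neuronal libraries held 140.7, 74.4, 71.9 and 98.0 CPM and the non-neuronal ones 0.756, 2.26, 0 and 2.55, a log2 difference of 6.04 (SE 1.00, edgeR adjusted p 0.0012). Its exons share 1621 bp with the antisense gene Gm26794. No source used here says whether counting used the strand, so reads from that stretch cannot be told apart. The same holds for 380 bp of Kcnj6 exons shared with Gm41505 and 172 bp of Kcnj9 exons shared with Gm36937.

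Kcnj6 (Kir3.2, chr16:94748636-94997701, minus strand) followed the same course. It stood at 30.1, 41.0, 38.4 and 21.4 CPM in neuronal corn oil libraries and at 0, 1.13, 9.27 and 0 CPM in non-neuronal ones. All neuronal libraries were above all non-neuronal ones, with library 3 the highest of the latter, and the log2 difference was 3.75 (SE 1.09, edgeR adjusted p 0.022). The call was lost, at adjusted p 0.054 to 0.059, without neuronal corn oil library 2, neuronal corn oil library 3 or non-neuronal corn oil library 2, and the log2 difference was 6.64 without non-neuronal corn oil library 3. After agonist, neuronal libraries held 421 counts of Kcnj6 and non-neuronal ones 1, a ratio of 342 with a 95% counting interval of 61.1 to 13556, and the gene was called (edgeR adjusted p 0.0028).

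Kcnj5 (Kir3.4, chr9:32314707-32344350, minus strand) differed from these in the corn oil animals. It was at 33.0, 33.6, 23.9 and 47.3 CPM in neuronal corn oil libraries, and at 4.44, 39.8, 10.8 and 15.3 CPM in non-neuronal ones. The groups overlapped through non-neuronal library 2, and Kcnj5 was not called (log2 difference 1.05, SE 0.60, edgeR adjusted p 0.24). Without that library the log2 difference was 1.83 and the adjusted p 0.029. Its non-neuronal mean was 51.0% of its neuronal mean, with single non-neuronal libraries at 12.9% to 115%. The sum of the neuronal markers reached 9.66%, Kcnj6 7.94%, Kcnj3 3.03% and Kcnj12 2.10%. The share was not particular to Kcnj5, since Kcnj2 reached 52.6%, Kcnj9 43.0% and Kcnj11 27.4%.

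After agonist Kcnj5 stood at 1.13, 0, 2.61 and 0.231 CPM in non-neuronal libraries and at 379.9, 18.8, 45.4 and 37.2 CPM in neuronal ones. The groups no longer overlapped, and the log2 difference was 6.77 (SE 1.25, edgeR adjusted p 0.0023). Neuronal agonist library 1 lay 8.03 times above the highest of the other neuronal libraries, the other 3 lay within or near the corn oil range, and without that library the log2 difference was 5.05 (edgeR adjusted p 0.023).

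Kcnj9 (Kir3.3, chr1:172320501-172329318, minus strand), which lies 11891 bp from Kcnj10 on the opposite strand, had the lowest mean level per kilobase of the Kir3 genes in neuronal nuclei of both treatments. It ran at 4.45, 1.03, 2.42 and 6.28 CPM in neuronal corn oil libraries, 2.52, 12.9, 3.37 and 17.2 CPM after agonist, and 0.296 to 3.89 CPM in non-neuronal corn oil libraries. No non-neuronal agonist library had a count against 144 in the neuronal ones, so the neuronal level was at least 39.0-fold higher, counting 3 as the floor over the group. It failed the filter in both comparisons of populations and was not tested there.

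Within neuronal libraries the Kir3 genes made up 72.6% to 83.8% of the summed per-kilobase level of the 10 members in corn oil and 68.0% to 84.5% after agonist. Kcnj3 alone was 45.8% to 61.2% of the Kir3 sum in corn oil libraries and 49.1% to 58.8% in neuronal agonist libraries 2 to 4. In neuronal agonist library 1 it was 23.9%, and Kcnj5 was 71.8%. The Kcnj6 share was between 10.6% and 19.3% in corn oil and between 3.83% and 13.6% after agonist, and these ranges overlap.

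**Figure D2:**
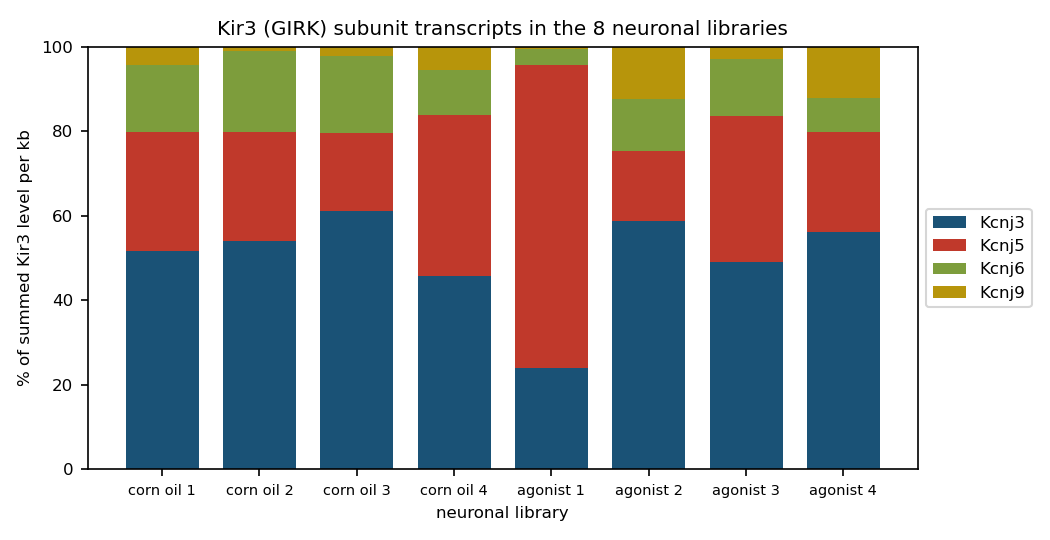
Share of each Kir3 gene in the summed Kir3 level (TMM-scaled CPM per kb) of each of the 8 neuronal libraries, as stacked bars from 0 to 100%. Kcnj3 is the widest band in 7 libraries, and Kcnj5 takes 71.8% in agonist library 1.

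Kcnj2 (Kir2.1, chr11:111066164-111076821, plus strand) was shared by both populations. It was at 31.4, 11.8, 30.9 and 15.4 CPM in neuronal corn oil libraries and at 3.55, 6.38, 18.5 and 18.6 CPM in non-neuronal ones, with groups that overlapped. Neither the corn oil difference (log2 1.02, SE 0.64, edgeR adjusted p 0.28) nor the agonist one (log2 1.36, SE 1.11, adjusted p 0.50) was called.

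Kcnj12 (Kir2.2, chr11:61022564-61071131, plus strand) had almost all of its counts in neuronal nuclei. Non-neuronal libraries held 1 count in all in corn oil and 3 after agonist, against 70 and 298 in neuronal libraries. After agonist the ratio was 80.8 with a 95% counting interval of 27.4 to 394, and Kcnj12 was called (edgeR adjusted p 0.012), but not without non-neuronal agonist libraries 1 and 2 (adjusted p 0.058). In corn oil it did not pass the filter, and the groups did not overlap.

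After agonist the Kir6 genes split between the populations, each on the side of the sulfonylurea receptor that lies next to it in the genome. In corn oil their means lay on the same sides, but the libraries overlapped, Kcnj8 was not called and Kcnj11 was not tested. Kcnj11 (Kir6.2, chr7:46093953-46100764) is 3758 bp from Abcc8 (SUR1), and Kcnj8 (Kir6.1, chr6:142564837-142571614) is 16247 bp from Abcc9 (SUR2), with no coding gene between in either case. Abcc8 stood at 65.6 to 117 CPM in neuronal and 0.777 to 11.1 CPM in non-neuronal corn oil libraries (log2 difference 4.60, SE 0.66, edgeR adjusted p 0.00024). Abcc9 stood at 1.28 to 13.6 CPM in neuronal and 83.7 to 481.9 CPM in non-neuronal corn oil libraries (log2 difference −4.97, SE 0.76, edgeR adjusted p 0.00038). Both were called in the same direction after agonist, at 3.67 (SE 1.05, edgeR adjusted p 0.030) and −4.68 (SE 0.65, adjusted p 0.00033).

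Kcnj11 was at 1.83, 2.82, 3.87 and 1.57 CPM in neuronal corn oil libraries and 0.888, 1.88, 0 and 0 CPM in non-neuronal ones. These overlap, and the gene did not pass the filter there. After agonist, neuronal libraries held 169 counts and non-neuronal ones none, at least 45.8-fold higher over a floor of 3 counts per group, and Kcnj11 was called (edgeR adjusted p 0.011).

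Kcnj8 was at 0.262, 4.10, 2.42 and 2.35 CPM in neuronal corn oil libraries and at 3.55, 30.03, 0.299 and 33.4 CPM in non-neuronal ones. Non-neuronal libraries 1 and 3 lay within the range of the neuronal ones, and the log2 difference of −2.80 (SE 1.15) was not called (edgeR adjusted p 0.096). It was called without non-neuronal library 3 (−3.15, edgeR adjusted p 0.028), by DESeq2 (adjusted p 0.030) and by edgeR with no filter (adjusted p 0.037). After agonist no neuronal library held a count of Kcnj8, non-neuronal ones held 7.18, 79.4, 9.41 and 17.1 CPM, at least 125-fold higher, and the gene was called (edgeR adjusted p 0.0039). Markers of pericytes, which carry Kir6.1 around blood vessels, were lower in neuronal nuclei too. The 6 genes summed to 23.9 to 133 CPM in neuronal and 170 to 1549 CPM in non-neuronal libraries (Ndufa4l2 was at 0 in both corn oil groups). Cspg4 and Rgs5 were called lower in neuronal nuclei under both treatments. In non-neuronal corn oil libraries 1 to 4 the sums were 592, 319, 414 and 1549 CPM, in another order than Kcnj8. Smooth muscle, fibroblast, macrophage and epithelial markers were lower as well, with median log2 differences of −3.54, −4.66, −5.19 and −5.14 in corn oil (pericytes −3.36). The part of any of these cells in the Kcnj8 difference was not tested.

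**Figure D3:**
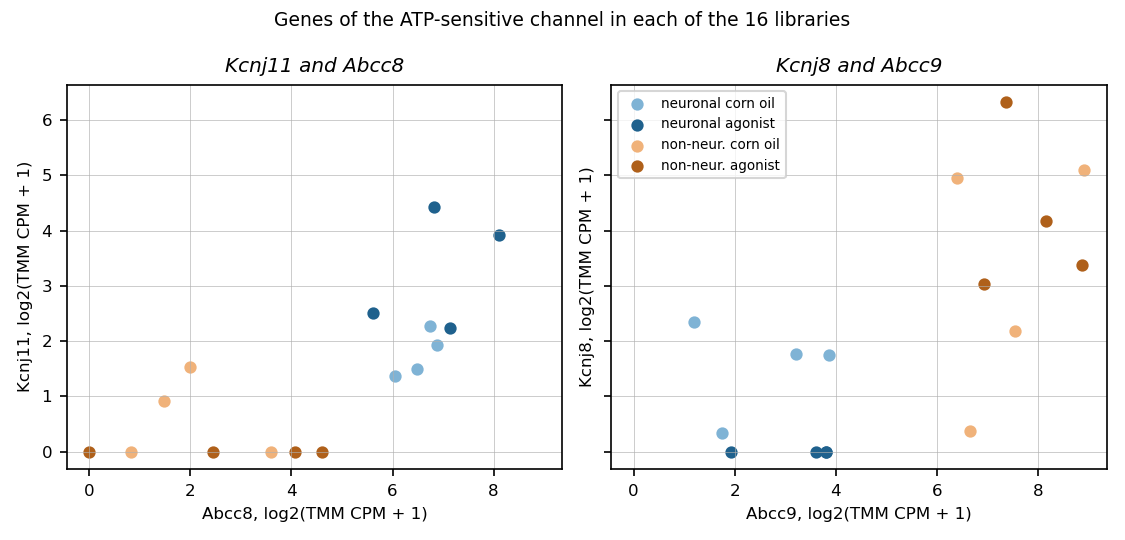
Kcnj11 against its neighbour Abcc8 (left) and Kcnj8 against its neighbour Abcc9 (right), as log2 of TMM-scaled CPM plus 1, with each point a library coloured by group. Neuronal points lie high in Abcc8 and low in Abcc9, the 2 highest Kcnj11 points are neuronal agonist libraries, and all neuronal agonist points are at 0 in Kcnj8.

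Kcnj10 (Kir4.1, chr1:172341210-172374085, plus strand) was at 5.92, 21.4, 26.0 and 48.7 CPM in non-neuronal corn oil libraries and at 2.36, 0, 0.725 and 1.31 CPM in neuronal ones. The groups did not overlap, and Kcnj10 was called lower in neuronal nuclei (log2 difference −4.42, SE 0.96, edgeR adjusted p 0.0041). The adjusted p was 0.056 where all 4 groups shared a fit. After agonist, non-neuronal libraries held 18.1, 0, 2.35 and 19.0 CPM, the neuronal counts were 13, 0, 0 and 0, and the gene did not pass the filter. The 8 glial markers summed to 8.21 to 27.5 CPM in neuronal libraries and 96.1 to 308 CPM in non-neuronal ones. None of them was at 0 in a whole group. Erbb3 was called lower in neuronal nuclei under both treatments. Its mean was 63.3 CPM of a mean sum of 114 CPM in non-neuronal corn oil libraries. S100b went the other way, at means of 1.75 (neuronal) and 0.764 CPM (non-neuronal) in corn oil and 1.97 and 0.564 CPM after agonist. Foxd3 had 4 counts in neuronal and 2 in non-neuronal corn oil libraries. In non-neuronal corn oil libraries 1 to 4 the glial sums were 99.7, 113, 149 and 96.1 CPM, in another order than Kcnj10. Smooth muscle, fibroblast, macrophage and epithelial markers were lower in neuronal nuclei as well. The part of any of these cells in the Kcnj10 difference was not tested.

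Counted together, 2 members, Kcnj3 and Kcnj6, were called higher in neuronal nuclei and 1, Kcnj10, lower among 6 tested in corn oil. Over all 15285 genes tested, 25.4% were called, 11.8% higher and 13.5% lower, so calls were common in this comparison. After agonist 5 members, Kcnj3, Kcnj5, Kcnj6, Kcnj11 and Kcnj12, were called higher and 1, Kcnj8, lower among 7 tested, against 13.6% of 14065 genes called, 6.67% higher and 6.97% lower. With library size scaling in place of TMM, 1332 genes were higher and 649 lower, against 938 and 980, and the same numbers of members. These member counts were 4 higher and 1 lower among 9 tested without non-neuronal agonist libraries 1 and 2, and 6 higher and 1 lower among 8 tested without neuronal agonist library 1. The libraries of the populations did not overlap for Kcnj3, Kcnj6, Kcnj10 and Kcnj12 in corn oil and for Kcnj3, Kcnj5, Kcnj6, Kcnj8, Kcnj9, Kcnj11 and Kcnj12 after agonist, as they did not for 30.6% and 21.6% of all tested genes. These are 4 and 7 of the 10 members. Kcnj12 in corn oil and Kcnj9 after agonist were not tested, while the shares cover tested genes only.

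**Figure D4:**
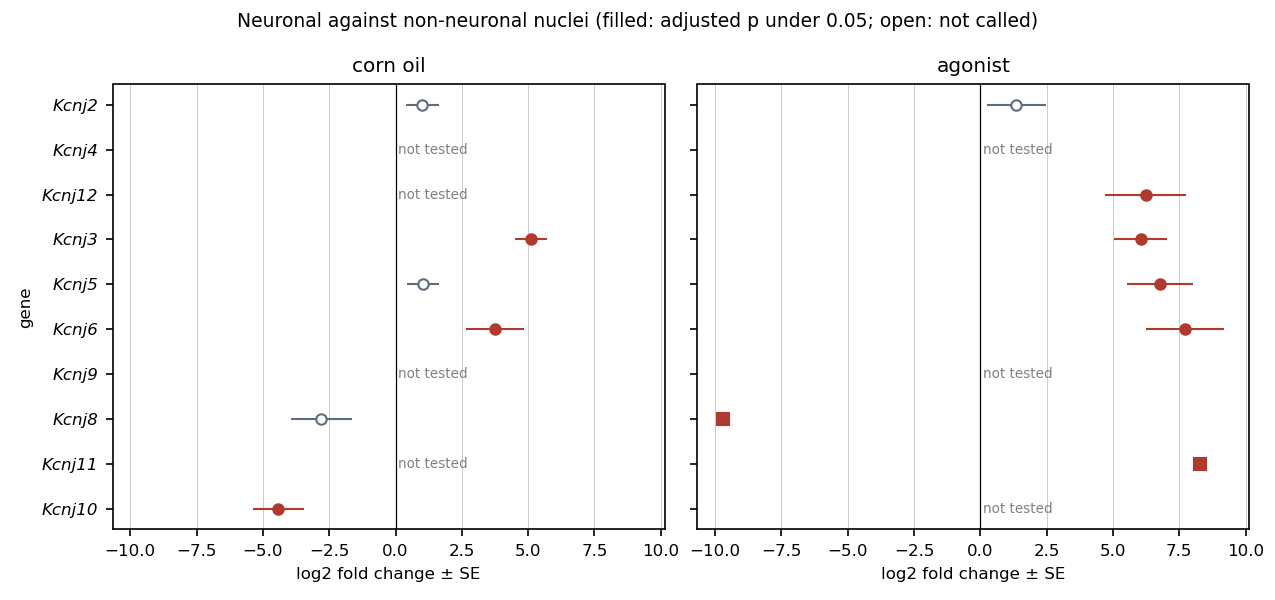
Log2 difference between neuronal and non-neuronal nuclei for each Kcnj gene in corn oil (left) and agonist (right), positive where neuronal nuclei were higher, with bars of 1 SE. Filled symbols passed adjusted p 0.05, and squares without a bar mark genes with no count in 1 group (Kcnj8, Kcnj11), whose fitted size depends on the prior count; Kcnj3 (5.11 in corn oil) and Kcnj6 (3.75) are filled on both sides, Kcnj2 on neither.

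The genes that work with these channels were taken from lists of Gi/o-coupled receptors, G protein subunits and their regulators, and anchoring and lipid-signalling proteins. Of all tested genes, 11.8% were called higher in neuronal nuclei and 13.5% lower in corn oil, and 6.67% and 6.97% after agonist. Of 25 receptors, 16 were tested in corn oil, and 8 were higher in neuronal nuclei and 0 lower. Their median log2 difference was 2.38 against −0.11 over all genes. The receptors called higher include the cannabinoid receptor Cnr1 (log2 4.53, SE 0.62, edgeR adjusted p 0.00018), the mu opioid receptor Oprm1 (3.45, SE 0.55, adjusted p 0.00051) and the kappa opioid receptor Oprk1 (3.61, SE 0.59, adjusted p 0.00064). The galanin receptor Galr1 had 134 counts in neuronal and 0 in non-neuronal corn oil libraries (edgeR adjusted p 0.0013). After agonist 6 of 15 tested were higher and 0 lower.

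Of 22 G protein and regulator genes, 20 were tested in corn oil and 8 were higher, 0 lower, where 11.8% of all tested genes were higher and 13.5% lower. Rgs7, which speeds the closing of GIRK channels, was higher by 3.34 on the log2 scale (SE 0.52, edgeR adjusted p 0.00044), and Gnao1, the alpha subunit of Go, was higher by 2.28 after agonist (SE 0.54, adjusted p 0.012). Of 17 anchoring and lipid-signalling genes, 3 were higher and 6 lower among 16 tested in corn oil. The scaffold gene Dlg2 was higher in neuronal nuclei (log2 3.45, SE 0.33, edgeR adjusted p 1.3e-05), and its relative Dlg1 was lower (−1.67, SE 0.27, adjusted p 0.0005). After agonist 2 of 19 and 2 of 16 were higher and 0 and 3 lower in these lists, small counts where 6.67% of all tested genes were higher and 6.97% lower. No gene of the 3 lists was called for the agonist in either population, where 0.0% (neuronal) and 0.0135% (non-neuronal) of all tested genes were.

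Among the remaining Kcnj genes, Kcnj13 (Kir7.1) alone was tested between populations, and it was not called (log2 0.11, SE 0.63, edgeR adjusted p 0.93 in corn oil). Its mean level in neuronal corn oil libraries, 9.10 ± 4.81 CPM per kb (SD, n = 4), was above those of Kcnj5 and Kcnj6. Its exons share 623 bp with Gigyf2 on the other strand. Kcnj15 (Kir4.2) held 0.299 to 28.5 CPM in non-neuronal corn oil libraries and a count in only 1 of the 4 neuronal ones.

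The agonist comparison in neuronal nuclei asks whether these channels respond to AhR within 14 hours. No member was called among 7 tested, and no gene at all was called among 14182 (0.0%) by edgeR. Of 6 listed AhR targets 3 were tested and 0 called. Yet the mean of Ahrr went from 8.15 CPM in corn oil to 57.3 CPM after agonist, and that of Tiparp from 36.4 to 84.0 CPM. The lack of a call therefore does not show that the members were unchanged. DESeq2 called 9 genes and no member. At an unadjusted p under 0.05 there were 3 members, Kcnj5, Kcnj11 and Kcnj12, all higher after agonist, and 5.01% of all genes.

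Kcnj12 was at 7.07, 2.31, 4.83 and 3.66 CPM in the corn oil libraries and at 29.7, 24.3, 9.34 and 9.16 CPM in the agonist libraries. Every agonist library was above every corn oil library, a separation seen in 3.64% of all tested genes. The log2 difference was 2.01 (SE 0.65, edgeR p 0.0089, adjusted p 0.90), and it ran from 1.67 to 2.32 when each library was left out. Relative to Kcnj2 per kilobase, Kcnj12 was 0.309 to 0.470 times as high in corn oil libraries and 0.514 to 5.63 times as high in agonist libraries, without overlap. The ratio uses the same Kcnj12 values, so it is no separate support. Its highest value, 5.63, was in agonist library 2, where Kcnj2 was lowest at 8.54 CPM. Kcnj2 itself stood at 29.7, 8.54, 22.3 and 35.2 CPM after agonist, overlapping corn oil (log2 0.09, SE 0.54, edgeR adjusted p 0.98).

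Kcnj11 stood at 14.1, 3.72, 20.5 and 4.72 CPM after agonist. Libraries 1, 3 and 4 were above all corn oil libraries, and library 2 was below the highest of them at 3.87 CPM. The log2 difference was 2.08 (SE 0.79, edgeR p 0.021, adjusted p 0.90). Its partner Abcc8 was at 275.5, 139.2, 112 and 48.0 CPM after agonist, overlapping the corn oil range (log2 0.61, SE 0.43, edgeR adjusted p 0.91).

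For Kcnj5 the log2 difference of 1.80 (SE 0.77, edgeR p 0.035, adjusted p 0.90) rested on a single library. It was −0.036 without neuronal agonist library 1, and DESeq2 gave the gene no p. Kcnj9 was higher by 1.33 (SE 0.86, edgeR adjusted p 0.90), Kcnj3 by 0.38 (SE 0.30, adjusted p 0.92), and Kcnj6 was at −0.31 (SE 0.40, adjusted p 0.96). All overlapped between treatments.

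Kcnj8 was not tested, since its counts in neuronal nuclei were low. It had 36 counts over the 4 corn oil libraries, with 1 to 16 in each, and 0 over the 4 agonist libraries, at least 12.2-fold lower. Pericyte markers spanned 23.9 to 133 CPM in corn oil and 26.5 to 122 CPM in agonist neuronal libraries, and Abcc9 1.28 to 13.6 and 2.77 to 13.0 CPM, and these ranges overlap. Epithelial, fibroblast and smooth muscle markers had lower mean sums in the agonist libraries, and none of these genes was called. The 8 epithelial markers summed to 12.6 to 87.2 CPM in corn oil and 3.63 to 30.8 CPM after agonist, and the 6 fibroblast markers to 10.2 to 50.5 and 5.80 to 20.3 CPM. Muc2, a mucin of goblet cells, was at a log2 difference of −2.32 (SE 0.69, edgeR p 0.0052, adjusted p 0.90), and the median over 7 tested smooth muscle markers was −0.99. The part of these cells in the Kcnj8 counts was not tested. Kcnj10 had 17 counts in corn oil and 13 after agonist, all of the latter in library 1, and Kcnj4 had no count in either group.

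**Figure D5:**
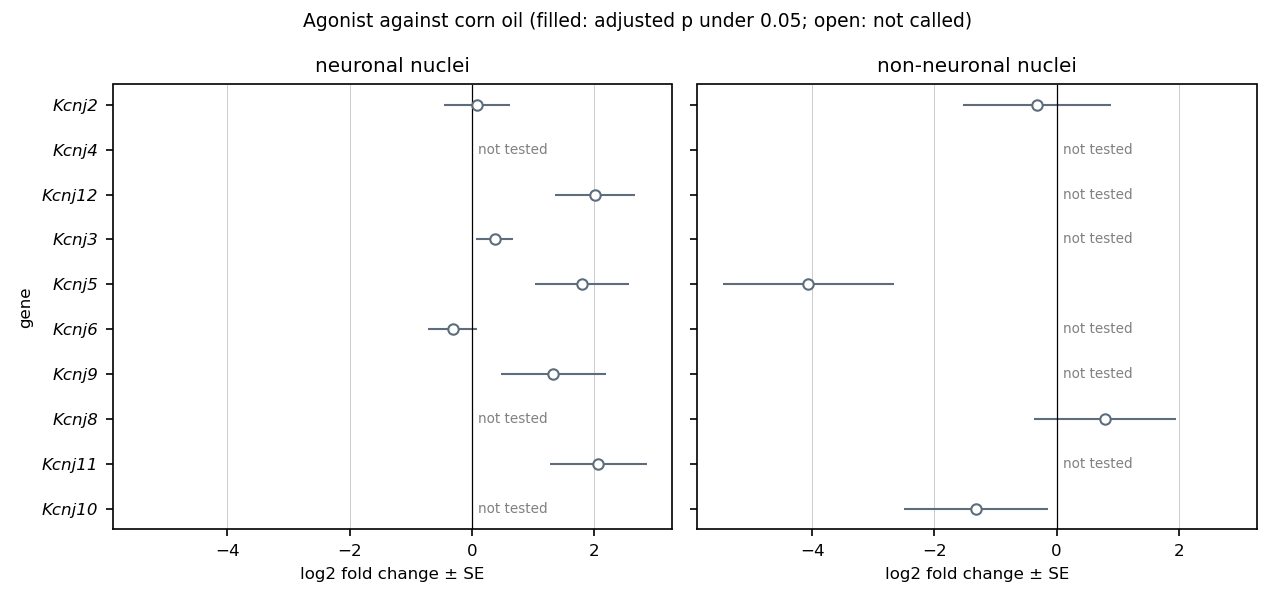
Log2 difference between agonist and corn oil for each Kcnj gene in neuronal (left) and non-neuronal nuclei (right), positive where agonist was higher, with bars of 1 SE. All symbols are open since no member passed adjusted p 0.05; Kcnj12 (2.01) and Kcnj11 (2.08) lie to the right in neuronal nuclei and Kcnj5 (−4.07) to the left in non-neuronal nuclei.

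In non-neuronal nuclei 2 of 14846 genes were called (0.0135%), Cyp1a1 among them (1385 counts against 1, edgeR adjusted p 0.040), and no member among 4 tested. Of 6 listed AhR targets 4 were tested and 1 called. The mean of Ahrr went down, from 13.2 CPM in corn oil to 7.09 CPM after agonist, and that of Tiparp up, from 18.3 to 79.5 CPM. Kcnj5 was the only member with an unadjusted p under 0.05, where 4.82% of all genes had one. It was at 4.44 to 39.8 CPM in corn oil and at 0 to 2.61 CPM in agonist libraries, without overlap, as for 3.42% of all tested genes (log2 −4.07, SE 1.40, edgeR p 0.010, adjusted p 0.95). Kcnj9 had 20 counts in corn oil and 0 after agonist, at least 6.54-fold lower, and was not tested. Kcnj3 (30 counts in corn oil, 18 after agonist), Kcnj6 (34 and 1), Kcnj11 (8 and 0), Kcnj12 (1 and 3) and Kcnj4 (3 and 0) were not tested either. The neuronal markers summed to 121 to 358 CPM in corn oil and 65.7 to 368 CPM in agonist non-neuronal libraries, and Rbfox3 was at 0 in the latter group. Their part in these differences was not tested.

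The other 3 tested members overlapped between treatments. Kcnj10 was at −1.32 (SE 1.18, edgeR adjusted p 0.98), with agonist library 2 at 0. Kcnj2 was at −0.32 (SE 1.21, edgeR adjusted p 0.99). Kcnj8 was at 0.79 (SE 1.16, edgeR adjusted p 0.99), and at −0.54 without non-neuronal agonist library 2, which held 176 of the group's 305 counts.

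Whether the agonist response differed between populations was tested as an interaction over all 16 libraries. Of 9 members tested none was called, as none of 18566 genes was (0.0%), with 103 genes called by DESeq2. At an unadjusted p under 0.05 there were 5 members, Kcnj5, Kcnj6, Kcnj8, Kcnj9 and Kcnj11, and 7.99% of all genes. Kcnj5 had the smallest p of these, with a log2 difference of responses of 5.84 (SE 1.31, edgeR p 0.00019, adjusted p 0.23). DESeq2 gave it an adjusted p of 0.0034, and edgeR without the filter 2.2e-05. Without neuronal agonist library 1 the difference was 3.94 (SE 1.20, edgeR adjusted p 0.54). For Kcnj8, Kcnj9 and Kcnj11 a group had no count, and the fitted size is no measure of the change. Kcnj6 had 34 counts in non-neuronal corn oil libraries, 31 of them in library 3, and 1 after agonist. The log2 difference of responses was 0.47 for Kcnj2, 1.07 for Kcnj3, 0.96 for Kcnj10 and 0.99 for Kcnj12, and Kcnj4 was not tested.

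The promoters were searched for the AhR core GCGTG on either strand (CACGC on the strand shown), in the 250 bases before each start in the RefSeq table for GRCm38.p6. Of the 10 members 9 matched an entry by symbol, all but Kcnj11. A match stood in 4 members, Kcnj3, Kcnj6, Kcnj8 and Kcnj9, and in 28.2% of all 32851 promoters. The windows below belong to the member that separated by treatment among tested neuronal genes (Kcnj12), to the one with counts in neuronal corn oil but none in neuronal agonist libraries (Kcnj8) and to Kcnj9, 5′ to 3′ along the gene, with any match in capitals.
Kcnj12: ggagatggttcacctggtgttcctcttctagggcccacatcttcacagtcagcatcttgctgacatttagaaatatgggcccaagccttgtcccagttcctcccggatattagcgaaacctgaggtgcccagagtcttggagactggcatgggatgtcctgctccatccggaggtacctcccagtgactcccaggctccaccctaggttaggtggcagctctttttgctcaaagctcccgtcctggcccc
Kcnj8: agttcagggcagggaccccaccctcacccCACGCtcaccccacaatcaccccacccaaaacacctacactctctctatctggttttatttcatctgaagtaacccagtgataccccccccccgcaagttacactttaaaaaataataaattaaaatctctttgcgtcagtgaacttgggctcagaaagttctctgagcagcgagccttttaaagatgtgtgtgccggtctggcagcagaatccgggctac
Kcnj9: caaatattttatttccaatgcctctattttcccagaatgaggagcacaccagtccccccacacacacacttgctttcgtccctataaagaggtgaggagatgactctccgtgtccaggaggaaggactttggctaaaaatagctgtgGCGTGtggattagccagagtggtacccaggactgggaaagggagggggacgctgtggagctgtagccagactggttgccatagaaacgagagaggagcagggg
The Kcnj12 window (chr11:61065554-61065803, plus strand) has no match. It precedes a start inside the gene, and GENCODE also places a first exon upstream at 61022564 that was not searched. The Kcnj8 window (chr6:142571615-142571864, minus strand) has its match beginning at base −221 from the start, and the Kcnj9 window (chr1:172329323-172329572, minus strand) at base −103. A match of these letters is a description and not a binding site.

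Across the 16 libraries, the genes whose log2 level ran most like each member's differed from member to member. The correlations carry the split between the populations, which all 16 points share, along with depth and batch. Kcnj6 ran most like Rgs20 (Pearson r 0.97 over 16 libraries and 0.85 over the 8 neuronal ones). Kcnj5 ran most like Acsl6 (0.96 and 0.90), and Kcnj12 most like Nudt10 (0.95 and 0.67). Kcnj3 ran most like Fnbp1l, at 0.97 over 16 libraries and 0.04 within the 8 neuronal ones.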

How the data were processed

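Per the submitters' processing notes, reads were aligned to GRCm38 with STAR 2.5.2 and counted with RSEM 1.3.0, and the notes list DESeq2 1.10.1 too. No source used here gives the annotation release or whether counting used the strand. Per the labels' protocols, cDNA was amplified with the Ovation system, sheared to 200 bp, taken through 7 PCR cycles and read as 75 bp single ends. The authors deposited expected counts per Ensembl gene, not scaled to depth, in a table whose column headers carry a project name about AhR knockout mice. Groups were taken from the labels.

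Counts were rounded and symbols, positions and exon lengths taken from GENCODE M21. Each comparison of 2 groups was fitted with edgeR 4.0.16 (R 4.3.3): TMM, filterByExpr (minimum count 10, total 15), robust quasi-likelihood fit, Benjamini-Hochberg over all tested genes, and SE from the log2 difference and F. The interaction used all 16 libraries. Fits were also run on simulated counts with the same spread for every gene. That spread was not estimated from these data, so the run does not show how the fits perform here. DESeq2 1.42.0, library size scaling, TMM without mitochondrial genes, no filter, a common fit, a replicate block and leaving out each library were the alternatives. Leaving out non-neuronal agonist libraries 1 and 2 together was chosen after seeing the data. Intervals (exact, 95%) and floors (3 counts) cover counting error only, since amplified reads are not independent molecules.

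All members are named in every comparison. From each other list up to 4 genes with the smallest p are named, and Abcc8 and Abcc9 always. For members with at least 160 counts the genes most correlated (log2 CPM, prior count 2) were found. Members and lists were chosen with earlier results of these data known. No 2 libraries of a group agreed within sampling noise (lowest chi-square per degree of freedom 9.67).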

Additional observations from a re-analysis of the deposited data

Results flagged for a closer look

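In 34 sets of 4 libraries (a member in a group, where any library had a count), 8 had a library set apart from the other 3 by more than Dixon's 95% critical value for the gap over the range. Chance gives about 1 in 20, and a set with a single library above 0 passes by construction. Among the larger values, Kcnj5 was 379.9 CPM in neuronal agonist library 1, Kcnj8 was 79.4 CPM in non-neuronal agonist library 2, and Kcnj6 was 9.27 CPM in non-neuronal corn oil library 3. In the remaining 5 sets a single library held all the counts. These were Kcnj10 at 3.28 CPM in neuronal agonist library 1, Kcnj4 at 1.13 CPM and Kcnj12 at 0.375 CPM in non-neuronal corn oil library 2, Kcnj12 at 0.694 CPM in non-neuronal agonist library 4, and Kcnj6 at 0.451 CPM in non-neuronal agonist library 2.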

How the results depend on the processing

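Kcnj3 was called between populations under every alternative run in both treatments, and no alternative called a member for the agonist within a population. For the agonist in neuronal nuclei, DESeq2 called 9 genes and no filter 152. Kcnj2 was at −0.030 with library size scaling and ran from −0.16 to 0.37 leaving out a library, and Kcnj5 from −0.036 to 2.16. In non-neuronal nuclei, 35 genes were called by DESeq2, 88 with no filter, 11 with a common fit, 0 with library size scaling, 0 to 2 leaving out a library, and 1 without agonist libraries 1 and 2. Kcnj2 ran there from −1.33 to 0.075 and Kcnj8 from −0.54 to 1.35, and Kcnj8 was −0.34 without both libraries. Between populations in corn oil, 5 members were called with no filter and 2 to 5 leaving out a library. After agonist, DESeq2 called 2937 genes, no filter 3324 and the common fit 4590. Library size scaling moved the median log2 difference of all genes from −0.15 to 0.43 between populations after agonist, from −0.11 to 0.11 in corn oil, and from 0.13 to −0.28 for the agonist in non-neuronal nuclei. For the interaction, DESeq2 called 103 genes and no filter 110, leaving out a library 0 to 9, and leaving out both agonist libraries 7. DESeq2 and no filter each called 1 member, Kcnj5. Leaving out a library moved the interaction of Kcnj2 from −0.0092 to 1.45, of Kcnj10 from −3.76 to 1.62 and of Kcnj12 from −0.78 to 3.73. The mean Kcnj3 level in neuronal corn oil libraries was 90.1 CPM with library size scaling against 74.1. The cause of these shifts was not tested. Low counts limit Kcnj4, Kcnj9, Kcnj11 and Kcnj12 in non-neuronal nuclei and Kcnj8 and Kcnj10 in neuronal nuclei.

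The labels do not say that a number marks a mouse, and the main tests took no pairs. Deviations of same-numbered libraries correlated at −0.10 to 0.18 over all comparisons of 2 groups. Between populations the correlations were −0.0096 to 0.055 in corn oil and 0.0046 to 0.074 after agonist. Between populations, 6 of 8 libraries in corn oil and 5 of 8 after agonist correlated best with their own number, against 2 of 8 in each agonist comparison. Whether same-numbered neuronal and non-neuronal libraries share a mouse was not tested, and the main tests between populations ignore such a pairing. With a replicate block, 0 genes were called for the agonist in neuronal nuclei, 2 in non-neuronal nuclei, 3731 and 1941 between populations in corn oil and agonist, and 0 for the interaction. The same counts of members were called, 3 and 6 between populations.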
